A study of Mus musculus with 18 samples.

Results

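The core circadian clock genes Per1, Per2, Per3, Cry1, Cry2, Clock, Nr1d1, Nr1d2, Dbp and Tef were followed through every group of an RNA-seq series on cultured mouse cortical astrocytes. They were matched by Entrez identifier to mouse symbols and make up 10 of the 22078 genes in each deposited count table. Cells were transfected with a plasmid for a designer receptor (DREADD), a G protein-coupled receptor altered to answer to a synthetic ligand, or for a fluorescent control protein. The ligand was deschloroclozapine (DCZ), given at 8 µM for 90 min, 7 days after transfection. The receptors were hM3Dq, which signals through Gq and calcium, rM3Ds, which signals through Gs and cAMP, and hM4Di, which signals through Gi and lowers cAMP. At 90 min there were 3 libraries each of hM3Dq, rM3Ds, hM4Di and a control that expressed EGFP. In 2 further groups of 3 libraries, hM3Dq and an mCherry control, DCZ was washed out after 90 min and RNA was taken 3 days later. All 6 groups had received DCZ, the controls included, and no group carried a receptor without ligand. Libraries of one group carry replicate numbers, and the labels do not say whether these are separate cultures, so p-values measure the spread between these libraries, which may be technical. The labels' protocols do not name the promoter of the plasmids or the share of cells that took them up, and a level is therefore an average over transfected and untransfected cells. In such bulk RNA, fewer cells of a type and less RNA per cell cannot be told apart.

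Library totals were 16067367 to 25222365 estimated counts at 90 min and 16580509 to 19691525 at 3 days. The smallest count of any clock gene in any library was 186, for Cry1, so all 10 genes passed the filter on low counts in every fit. Astrocyte markers were present in all 18 libraries. Sox9 stood at 108 to 321 counts per 1000000 of the library total (CPM), Slc1a3 at 32.1 to 186 and Aldh1l1 at 17.1 to 124. Slc1a2, Aqp4, Gja1, Aldoc and Fgfr3 did not fall below 13.1 CPM. Gfap was low at 1.70 to 22.7 CPM, and S100b had a median of 2.37 CPM in a range of 1.08 to 96.2. Markers of fibroblasts and mural cells were uneven. Col1a1 stood at 663 to 1906 CPM, Pdgfrb at 282 to 527, Dcn at 104.5 to 467 and Acta2 at 55.3 to 432. Lum stood at 0.0793 to 17.1 CPM, and Rgs5 did not exceed 0.346 CPM in any library. At 90 min the summed level of these markers was 1776 to 2386 CPM in EGFP and 1851 to 2397 in hM3Dq. It was 1769 to 2369 CPM in rM3Ds and 1384 to 2636 in hM4Di. At 3 days that sum was 1678 to 1946 CPM in mCherry and 1780 to 2099 in hM3Dq. Of 7 neuronal markers, 5 had means under 1 CPM in each group at 90 min and 6 at 3 days, and Snap25 and Syt1 did not exceed 0.33 CPM in any library. Their sum was 102 to 174 CPM over the 18 libraries, of which Map2 gave 98.7 to 173 CPM, and Tubb3 reached 2.60 CPM. Of the ependymal markers, Foxj1 stood at 37.3 to 295 CPM, while Ccdc153 and Tmem212 did not exceed 0.385 CPM. Of the endothelial markers, Tek stood at 3.05 to 58.3 CPM and Flt1 at 4.05 to 22.2. Pecam1, Cldn5 and Cdh5 did not exceed 0.621 CPM. In 3 libraries, EGFP 1, rM3Ds 2 and rM3Ds 3, the summed level of 10 cell cycle genes was 411, 247 and 256 CPM. It was 40.2 to 139 CPM in the other 9 at 90 min. The highest of these 9 were hM4Di 2 at 139 and hM4Di 1 at 112 CPM, followed by hM3Dq 1 at 69.0. Gfap was at 16.4 CPM in hM4Di 1 and at 22.7 in EGFP 1. Both hM4Di libraries were kept in the fits without the 3. EGFP 1 was also below both other EGFP libraries for 9 of the 10 clock genes, all except Dbp. The share of all genes for which this held is not given here. Differences of single clock genes from EGFP at 90 min are therefore given with EGFP 1, rM3Ds 2 and rM3Ds 3 included. Where they moved by over 1.5 times or turned, they are also given without them. For other genes and for medians the second value is given only in part. The part of culture state in these differences was not tested.

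The circadian clock is a loop of transcription and feedback. CLOCK with its partner BMAL1 (gene symbol Arntl) binds E-boxes and switches on the Period and Cryptochrome genes, whose proteins return to the nucleus and repress them. The same pair drives Nr1d1 and Nr1d2, which encode the REV-ERB repressors of Arntl, and Dbp and Tef, which encode activators that bind D-boxes. Per1 and Per2 have a second input, since the transcription factor CREB, phosphorylated after rises in calcium or cAMP, binds cAMP response elements (CREs) at these genes, and acute induction of Per1 by this path is known from light resetting of the clock. Astrocytes run their own clock and take part in setting daily rhythms.

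Promoters are shown for Per1, where the CREB input acts, and for Per3, the other Per gene with a window. Cry1 is also shown, since its window held a match to 3 of the motifs searched. RefSeq windows on the GRCm38.p6 build were found for 9 of the 10 genes, Per2 being the exception. The 250 bases before each start are printed 5′ to 3′ on the gene's strand. Capitals mark matches to the short CRE TGACG or the E-box CACGTG. They also mark the E′-box CACGTT, which reads AACGTG on the other strand. In Per3 they mark the D-box TTATGTAA. Per1 has one start at chr11:69098699-69098948 and another at chr11:69099902-69100151 on the plus strand, Per3 lies at chr4:151044666-151044915 on the minus strand and Cry1 at chr10:85185055-85185304 on the minus strand.
Per1 first start: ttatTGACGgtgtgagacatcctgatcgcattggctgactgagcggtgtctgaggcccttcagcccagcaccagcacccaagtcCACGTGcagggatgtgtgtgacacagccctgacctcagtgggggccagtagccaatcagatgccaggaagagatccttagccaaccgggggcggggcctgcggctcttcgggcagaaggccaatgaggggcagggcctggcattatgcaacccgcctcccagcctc
Per1 second start: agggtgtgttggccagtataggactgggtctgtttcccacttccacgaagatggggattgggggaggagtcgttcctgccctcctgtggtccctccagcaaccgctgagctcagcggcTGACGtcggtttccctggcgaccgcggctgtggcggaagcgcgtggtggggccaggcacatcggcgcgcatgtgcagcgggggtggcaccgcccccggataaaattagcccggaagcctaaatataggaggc
Per3: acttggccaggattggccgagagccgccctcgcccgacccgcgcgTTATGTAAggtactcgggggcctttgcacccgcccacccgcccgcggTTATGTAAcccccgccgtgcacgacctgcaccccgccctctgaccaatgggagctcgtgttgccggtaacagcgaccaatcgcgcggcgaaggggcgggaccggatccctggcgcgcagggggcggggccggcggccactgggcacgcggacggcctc
Cry1: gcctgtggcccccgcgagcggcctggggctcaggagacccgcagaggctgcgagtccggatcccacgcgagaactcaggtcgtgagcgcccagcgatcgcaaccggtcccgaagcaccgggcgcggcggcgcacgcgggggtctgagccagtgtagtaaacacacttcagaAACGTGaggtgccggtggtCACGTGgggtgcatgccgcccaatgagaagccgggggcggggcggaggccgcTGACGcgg

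Both Per1 windows held a short CRE, 246 bases before the first start and 132 before the second, and the first also held an E-box at 166. Per3 held no short CRE and a pair of D-boxes, at 205 and 158 bases. Cry1 held an E-box at 60, an E′-box at 79 and a short CRE at 8 bases. Searched on both strands of the whole window, 250 bases before to 50 after the start, the short CRE was in 20.8% of all 32851 promoters, the E-box in 7.15%, the E′-box in 4.68% and the D-box (TTATGTAA or TTACGTAA) in 1.06%. The full CRE TGACGTCA, which contains the short one, was in 1.79% of all promoters and in none of these windows. Of the other clock genes, Cry2 held a short CRE as CGTCA at 209 and an E′-box at 166, Nr1d1 an E′-box at 28 and Tef an E-box at 127 or 138 bases, by start. These are matches of letters and not measured binding.

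At 90 min after DCZ with hM3Dq, Per1 had the largest difference from EGFP of the 10 clock genes, and it did not pass the test across all genes. None of the 10 was called by edgeR's quasi-likelihood test at an adjusted p under 0.05, where 0.788% of all 13584 genes were called, while DESeq2 called 1, Per1, where it called 1.71% of all genes. At an unadjusted edgeR p under 0.05 there were 4 of the 10, Per1, Cry2, Nr1d1 and Dbp, beside 7.94% of all genes. The groups' CPM values did not overlap for 6 of the 10, Per1 and Per2 being higher and Cry2, Clock, Nr1d1 and Dbp lower with hM3Dq, beside 15.5% of all genes, of which 6.06% were higher and 9.44% lower.

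Per1, an early-acting Period gene, stood at 65.2, 71.4 and 47.2 CPM in the 3 hM3Dq libraries and at 26.5, 43.7 and 34.4 CPM in EGFP. Every hM3Dq library was above every EGFP library, and the lowest hM3Dq library was close to the highest EGFP library. Means were 61.3 ± 12.6 and 34.9 ± 8.62 CPM (SD, n = 3 each), and the fitted log2 fold change was 0.85 ± 0.19 (SE), with an edgeR adjusted p of 0.0912 and an unadjusted p of 0.000967. DESeq2 gave the same 0.85 with an adjusted p of 0.00424. Without EGFP 1, rM3Ds 2 and rM3Ds 3 the difference was 0.69 with an edgeR adjusted p of 0.297, and with any 1 library left out it lay between 0.70 and 1.05. When same-numbered libraries were blocked over all groups at 90 min it was 0.84, with an edgeR adjusted p of 0.210. That block also joined rM3Ds and EGFP, whose same-numbered libraries deviated in opposite ways (r of -0.764, -0.573 and -0.566 over genes). A paired fit of hM3Dq and EGFP alone was not made. The direction of Per1 was therefore the same in each of these fits, while the call was made by DESeq2 alone. In the hM3Dq libraries Per1 was also above all 9 other libraries at 90 min, as were 2.77% of all genes.

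Per2, the Period gene with the strongest loss-of-function effect on behavioural rhythm, stood at 38.3, 37.1 and 32.5 CPM with hM3Dq and at 22.0, 32.3 and 30.1 CPM in EGFP. The groups parted by a narrow margin, since the lowest hM3Dq library and the highest EGFP library were almost level. The log2 difference was 0.39 ± 0.18 (edgeR adjusted p = 0.639), and 0.25 without EGFP 1. Per3, the Period gene least needed for rhythm, stood at 51.5, 50.7 and 45.0 CPM with hM3Dq and at 41.7, 64.9 and 65.9 CPM in EGFP. The EGFP libraries spanned those of hM3Dq, and the log2 difference of Per3 was -0.19 ± 0.17 (edgeR adjusted p = 0.915). The 3 Per genes thus did not share a direction, and their median log2 difference of 0.39 was that of Per2, beside -0.17 for the other 7 clock genes and 0.00 for all genes.

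**Figure D1:**
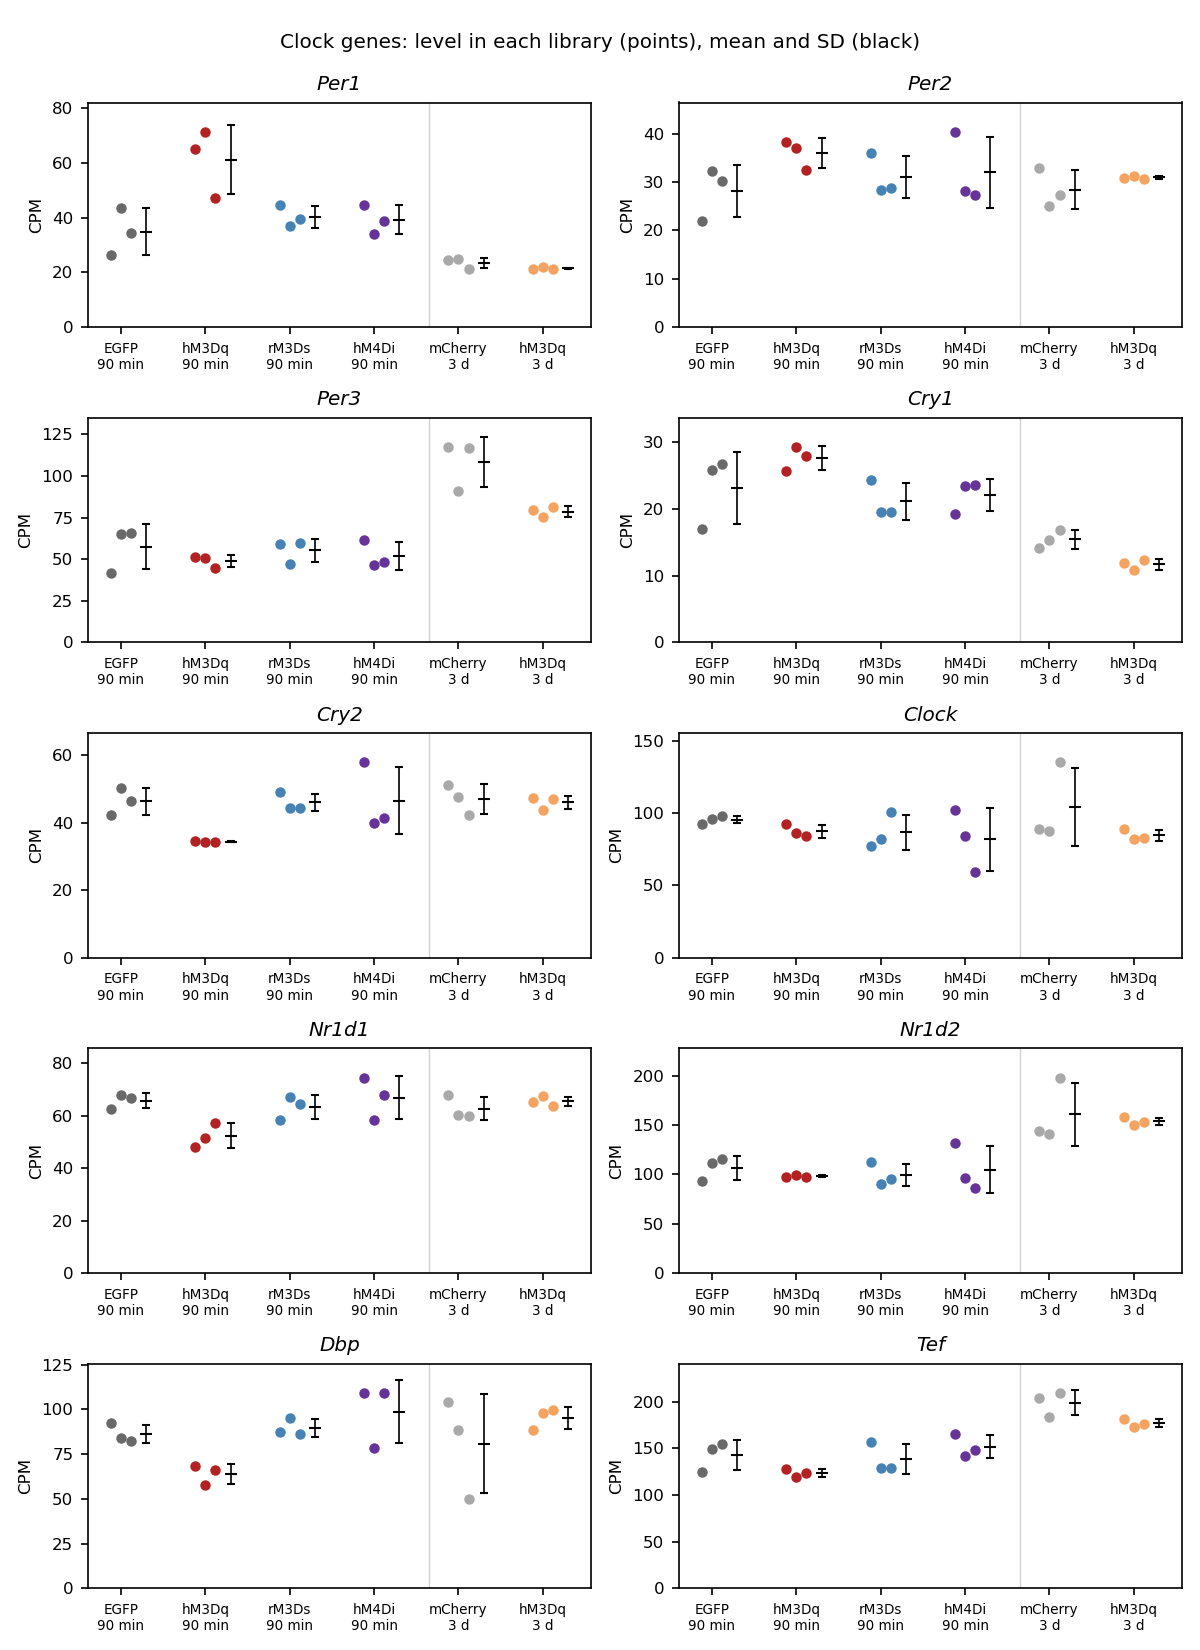
Level of each clock gene in every library, in CPM on a linear axis that starts at 0, by group at 90 min and at 3 days. Coloured points are libraries and black marks are the mean ± SD of 3 libraries. The 3 hM3Dq libraries at 90 min stand highest for Per1 (47.2 to 71.4 CPM) and lowest for Cry2 (34.3 to 34.6 CPM).

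The Cryptochromes, the repressor partners of the PER proteins, had differences of opposite sign with hM3Dq. Cry1 stood at 25.7, 29.3 and 28.0 CPM with hM3Dq and at 16.9, 25.8 and 26.7 CPM in EGFP, and the groups overlapped. Its log2 difference was 0.30 ± 0.16 (edgeR adjusted p = 0.722). Cry2 stood at 34.6, 34.3 and 34.3 CPM with hM3Dq and at 42.2, 50.3 and 46.5 CPM in EGFP, so all hM3Dq libraries were lower. Its log2 difference was -0.39 ± 0.13, with an edgeR adjusted p of 0.405 and an unadjusted p of 0.0131. The SD of Cry2 over the hM3Dq libraries was 0.159 CPM, smaller than in the other groups.

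Clock, the activating subunit itself, stood at 92.5, 86.2 and 83.9 CPM with hM3Dq and at 92.8, 96.1 and 97.8 CPM in EGFP. The groups did not overlap, but the highest hM3Dq and the lowest EGFP library differed by less than either group's SD of 4.44 and 2.54 CPM. The log2 difference was -0.09 ± 0.18 (edgeR adjusted p = 0.972).

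The REV-ERB gene Nr1d1 stood at 48.0, 51.4 and 57.3 CPM with hM3Dq and at 62.3, 67.8 and 66.6 CPM in EGFP. All hM3Dq libraries were lower, with a log2 difference of -0.29 ± 0.10, an edgeR adjusted p of 0.433 and an unadjusted p of 0.0155. Its paralog Nr1d2 stood at 97.7, 99.3 and 97.0 CPM with hM3Dq and at 92.9, 111 and 116 CPM in EGFP. These overlapped, with a log2 difference of -0.08 ± 0.15 (edgeR adjusted p = 0.967).

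Dbp, the D-box activator that is a widely used readout of CLOCK and BMAL1 activity, stood at 68.2, 57.5 and 66.3 CPM with hM3Dq and at 92.1, 83.9 and 82.6 CPM in EGFP. All hM3Dq libraries were lower, by -0.39 ± 0.12 on the log2 scale, with an edgeR adjusted p of 0.338 and an unadjusted p of 0.00845. Tef, a D-box activator of the same family, stood at 128, 119 and 123 CPM with hM3Dq and at 124, 149 and 155 CPM in EGFP, and the groups overlapped. Its log2 difference was -0.17 ± 0.11 (edgeR adjusted p = 0.780). Cry2, Nr1d1 and Dbp were below all 9 other libraries at 90 min in each hM3Dq library, as were 2.65% of all genes. Without EGFP 1, rM3Ds 2 and rM3Ds 3 the log2 differences from EGFP were -0.46 for Cry2, -0.33 for Nr1d1 and -0.34 for Dbp, none of them passing edgeR's test. In that fit Per2 was at 0.24, Per3 at -0.37, Cry1 at 0.11, Nr1d2 at -0.17 and Tef at -0.26, none passing either. How far the strand of counting could touch these values was not tested: Nr1d1 overlaps Thra, Dbp overlaps Sphk2, Cry2 overlaps D930015M05Rik and Tef overlaps Gm17597, each on the opposite strand, and no source used here says whether counting used strand.

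With rM3Ds at 90 min, none of the 10 clock genes was called, by edgeR or by DESeq2, where edgeR called 0.0147% and DESeq2 0.412% of all genes. At an unadjusted edgeR p under 0.05 there were also 0 of the 10, beside 4.23% of all genes, and no clock gene had groups without overlap, beside 7.35% of all genes. Per1 stood at 44.7, 36.9 and 39.5 CPM with rM3Ds, and EGFP 2 at 43.7 lay among these. Its log2 difference was 0.20 ± 0.19. Per2 stood at 36.0, 28.4 and 28.8 CPM, with a difference of 0.13, and Per3 at 59.1, 47.3 and 59.5 CPM, with a difference of -0.06. The other 7 lay between -0.15 for Clock and 0.04 for Dbp, with Nr1d2 at -0.11, Cry1 at -0.14, Nr1d1 at -0.06, Tef at -0.05 and Cry2 at -0.02. All 10 had an edgeR adjusted p of 1.00. The libraries rM3Ds 2 and rM3Ds 3, which had high cell cycle levels, were below rM3Ds 1 for Per1, Per2, Cry1, Cry2, Nr1d2 and Tef. How many of all genes stood this way is not given here. Without rM3Ds 2, rM3Ds 3 and EGFP 1, when 1 rM3Ds library is left, Per2 was at 0.20, Per3 at -0.15 and Clock at -0.33. Nr1d1 was at -0.21, Dbp at 0.07 and Nr1d2 at -0.02. In that fit Cry2 and Tef turned, to 0.01 and 0.04.

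With hM4Di at 90 min, edgeR called none of the 10 and 0.0% of all genes, DESeq2 called none of the 10 and 0.258% of all genes, and no clock gene had an unadjusted edgeR p under 0.05, beside 5.48% of all genes. No clock gene had groups without overlap, beside 8.36% of all genes. Per1 stood at 44.7, 34.2 and 39.0 CPM with hM4Di, within the EGFP range but for the first library, and its log2 difference was 0.16 ± 0.19, or -0.01 without EGFP 1, rM3Ds 2 and rM3Ds 3. Per2 stood at 40.4, 28.2 and 27.4 CPM, with a difference of 0.17, and Per3 at 61.7, 46.2 and 48.4 CPM, with a difference of -0.15. The remaining genes lay between -0.23 for Clock and 0.17 for Dbp, and the edgeR adjusted p of the 10 ran from 0.833 to 0.993. Without EGFP 1, rM3Ds 2 and rM3Ds 3, Per2 was at 0.02, Per3 at -0.34, Cry1 at -0.27, Cry2 at -0.07 and Nr1d2 at -0.13, Nr1d1 and Tef turned to -0.03 and -0.02, and none passed edgeR's test. Without hM4Di 1 alone Per3 was at -0.31. The library hM4Di 1 was the highest of its group for 9 of the 10 genes, all except Cry1, and Dbp stood at 109, 78.3 and 109 CPM. For how many of all genes hM4Di 1 was highest is not given here.

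**Figure D2:**
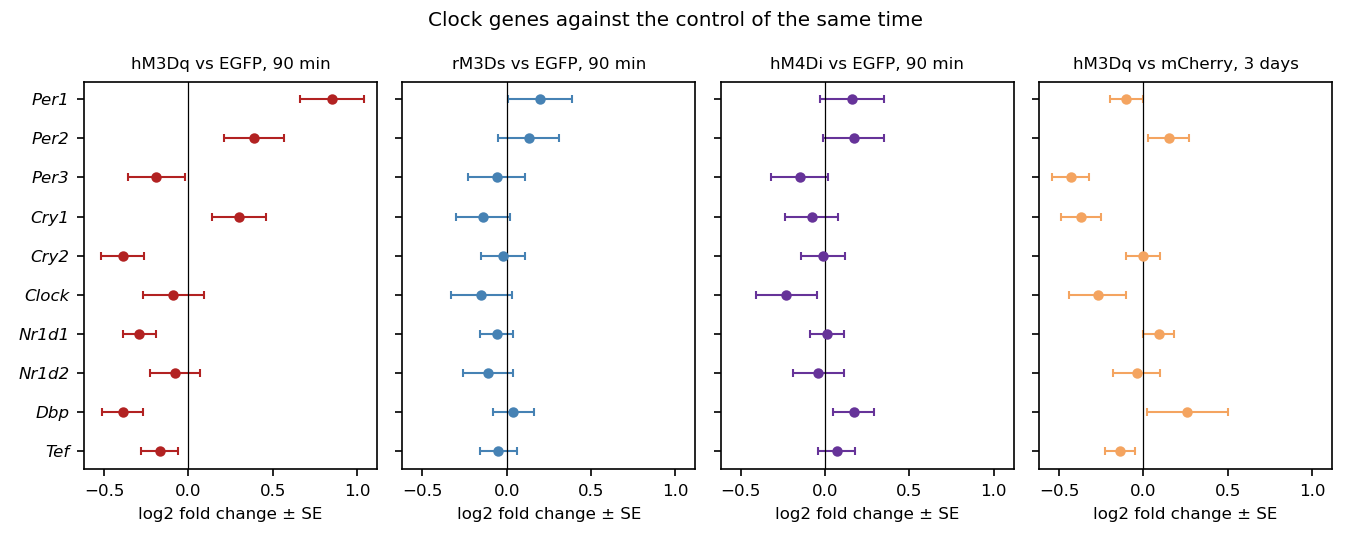
Log2 fold change (horizontal axis) of the 10 clock genes in the 4 comparisons with a control, with bars for 1 SE from edgeR. Per1 with hM3Dq at 90 min stands at 0.85, and the points for rM3Ds and hM4Di lie between -0.23 and 0.20.

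When the receptors were set against each other at 90 min, no clock gene was called by edgeR in any of the 3 pairs. Between hM3Dq and rM3Ds, edgeR called none of the 10, beside 0.67% of all genes, and 6 of the 10 had groups without overlap, beside 22.8% of all genes, 8.11% higher and 14.7% lower. Between hM3Dq and hM4Di it also called none, beside 0.802% of all genes, and the same 6 had groups without overlap, beside 21.0% of all genes, 8.57% higher and 12.4% lower. In both, Per1 and Cry1 were higher and Cry2, Nr1d1, Dbp and Tef lower with hM3Dq. Unadjusted edgeR p-values under 0.05 were found for 5 and 6 of the 10, beside 14.2% and 11.4% of all genes. Per1 differed by 0.65 ± 0.19 from rM3Ds (edgeR adjusted p = 0.176) and by 0.69 ± 0.19 from hM4Di (edgeR adjusted p = 0.144). Per2 differed by 0.26 and 0.22, and Per3 by -0.12 and -0.04. Without EGFP 1, rM3Ds 2 and rM3Ds 3 the difference of Per2 from rM3Ds was 0.05, that of Per1 0.5 and that of Cry1 0.23.

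The values of Dbp, Cry1 and Cry2 between receptors were named after they were seen. Dbp had the lowest adjusted p of any clock gene in any comparison, with a log2 difference from hM4Di of -0.57 ± 0.12 and an edgeR adjusted p of 0.0675. DESeq2 gave -0.58 (DESeq2 adjusted p = 0.00273), and edgeR without hM4Di 2 gave -0.73 (edgeR adjusted p = 0.0158) in a fit that called 0.434% of all genes. Against rM3Ds the difference of Dbp was -0.44 (edgeR adjusted p = 0.165), or -0.45 in DESeq2 (DESeq2 adjusted p = 0.0450). Cry2 was -0.37 from rM3Ds and -0.38 from hM4Di, and Cry1 was 0.43 and 0.38, with edgeR adjusted p-values from 0.250 for Cry2 against rM3Ds upwards. DESeq2 called 1 clock gene, Dbp, of hM3Dq against rM3Ds, beside 3.41% of all genes, and 2, Dbp and Per1, of hM3Dq against hM4Di, beside 3.09% of all genes. Between rM3Ds and hM4Di no clock gene was called by edgeR, beside 0.0147% of all genes, or by DESeq2, beside 1.51% of all genes. None had an unadjusted edgeR p under 0.05 there, beside 9.97% of all genes. None had groups without overlap, beside 10.8% of all genes, and the Per genes differed by 0.04, -0.04 and 0.09 in the order Per1, Per2 and Per3. These comparisons share libraries with those against EGFP.

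Per1 and Per2 are listed among CREB targets, so 20 other CREB target genes were read side by side. That list was chosen with earlier results of these data known. Its counts and medians are therefore descriptions and no test of CREB. With hM3Dq, 9 of these 20 rose against EGFP, beside 103 of all 13584 genes, 0 fell and 11 did not pass edgeR's test. Their median log2 difference was 0.91. The immediate-early transcription factor Fos stood at 51.7, 54.9 and 51.5 CPM with hM3Dq and at 9.85, 15.0 and 15.5 CPM in EGFP, without overlap and far apart. Its log2 fold change was 2.01 ± 0.16 (edgeR adjusted p = 6.18e-05), and 1.83 without EGFP 1, rM3Ds 2 and rM3Ds 3. The orphan nuclear receptor gene Nr4a1 rose by 2.00 ± 0.15 (edgeR adjusted p = 6.09e-05), and its paralog Nr4a2 by 3.21 ± 0.18 (edgeR adjusted p = 5.32e-06). The other called targets, named after their values were seen, were Ptgs2 at 3.96, Vgf at 3.69, Fosb at 3.57, Nr4a3 at 3.32, Egr1 at 2.40 and Junb at 1.29. Crem, a CREB family member with a CRE-driven internal promoter, had a difference of 0.39 ± 0.09 (edgeR adjusted p = 0.141). The fold change of Per1 was thus below those of Fos, Nr4a1 and Nr4a2 and above that of Crem.

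With rM3Ds, 2 of the 20 CREB targets rose, beside 2 of all 13584 genes, 0 fell and 18 did not pass, with a median of 0.48. Nr4a2 stood at 25.9, 29.0 and 31.0 CPM with rM3Ds and at 5.71, 9.64 and 8.57 CPM in EGFP, and rose by 1.84 ± 0.17 (edgeR adjusted p = 0.00203). The other was Vgf, a secreted neuropeptide precursor, at 3.66 ± 0.27 (edgeR adjusted p = 0.000458), near its 3.69 with hM3Dq. Both calls were lost without EGFP 1, rM3Ds 2 and rM3Ds 3, where 0 of the 20 passed, Vgf was at 3.55 (edgeR adjusted p = 0.0539) and Nr4a2 was at 1.5 (edgeR adjusted p = 0.0840) with 1 rM3Ds library left, which is then assumed to vary like the other groups. Fos was at 0.28 without those 3 libraries. In the full fit Crem differed by 0.59 ± 0.09 (edgeR adjusted p = 0.195) and Fos by 0.55 ± 0.15 (edgeR adjusted p = 0.621). The Per genes had a median of 0.13 there and the other 7 clock genes of -0.06, beside -0.02 for all genes. With hM4Di, 0 of the 20 passed, beside 0.0% of all genes. The median of the 20 was 0.13, beside 0.16 for the Per genes, -0.01 for the other 7 clock genes and -0.01 for all genes. The order of the receptors by their CREB target median, a description only, was hM3Dq, rM3Ds and hM4Di. Per1 also stood highest with hM3Dq, but its values for rM3Ds and hM4Di did not differ beyond their errors. The values of Per2, 0.17 ± 0.18 for hM4Di and 0.13 ± 0.18 for rM3Ds, could not be ordered either. Crem was higher with rM3Ds, at 0.59, than with hM3Dq, at 0.39.

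**Figure D3:**
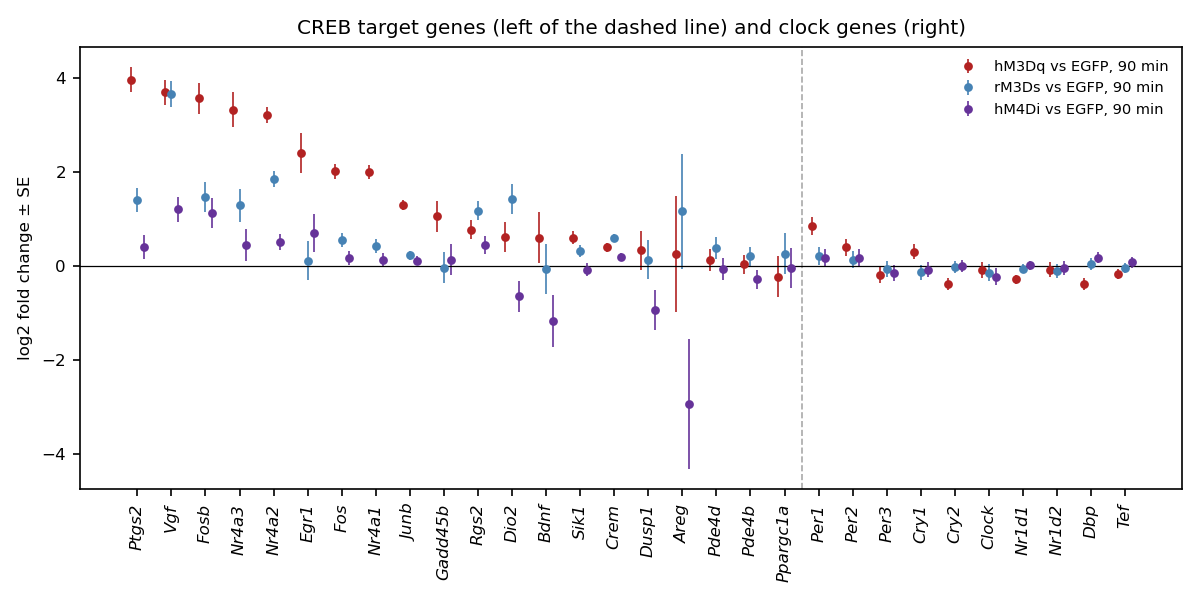
Log2 fold change against EGFP at 90 min of 20 CREB target genes, left of the dashed line, and of the 10 clock genes, right of it, for hM3Dq, rM3Ds and hM4Di, with bars for 1 SE from edgeR. With hM3Dq, Fos at 2.01, Nr4a1 at 2.00 and Nr4a2 at 3.21 stand above Per1 at 0.85.

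For hM3Dq against EGFP at 90 min, edgeR called 0.788% of all genes. Among 19 other genes of the clock pathway, 1 rose there, 0 fell and 18 did not pass edgeR's test, with a median of 0.07. That gene was Rorb, a nuclear receptor that acts on the same response elements as the REV-ERBs. It stood at 60.2, 40.9 and 53.0 CPM with hM3Dq and at 9.53, 19.4 and 19.8 CPM in EGFP. The groups were well apart, and the log2 fold change of Rorb was 1.71 ± 0.24 (edgeR adjusted p = 0.00740), and 1.43 without EGFP 1, rM3Ds 2 and rM3Ds 3 (edgeR adjusted p = 0.00640). Nfil3, the repressor that competes with DBP and TEF at D-boxes, stood at 33.8, 37.2 and 37.2 CPM with hM3Dq and at 6.80, 19.0 and 17.7 CPM in EGFP. These groups did not overlap either, but the spread between EGFP libraries was wide, and the log2 difference was 1.36 ± 0.34 (edgeR adjusted p = 0.160). Arntl, the gene of BMAL1, differed by 0.29 ± 0.18 (edgeR adjusted p = 0.771). The E-box repressor genes Bhlhe40 and Bhlhe41 differed by 0.20 ± 0.16 and 0.51 ± 0.33 (edgeR adjusted p = 0.874 and 0.803). EGFP 1 was low for both, at 62.8 CPM for Bhlhe40 against 106 and 111 in EGFP 2 and EGFP 3. For Bhlhe41 it was at 105 CPM against 228 and 240. Fold changes of these 2 genes without EGFP 1, rM3Ds 2 and rM3Ds 3 are not given here.

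With rM3Ds none of these 19 passed, beside 0.0147% of all genes, with a median of 0.00. With hM4Di none passed either, beside 0.0% of all genes, with a median of -0.04. Usp2, a deubiquitinase that is itself under clock control, stood at 43.0, 48.1 and 49.4 CPM with rM3Ds and at 23.1, 30.1 and 30.2 CPM in EGFP. The difference of 0.74 ± 0.13 did not pass (edgeR adjusted p = 0.200), whereas Usp2 was lower with hM3Dq than with rM3Ds by -0.78 ± 0.13 (edgeR adjusted p = 0.0285). Without EGFP 1, rM3Ds 2 and rM3Ds 3 this difference of Usp2 was -0.66 and did not pass (edgeR adjusted p = 0.431). Usp2 was chosen for mention after its values were seen. In rM3Ds Nfil3 differed from EGFP by 0.62, Bhlhe40 by 0.41, Arntl by -0.13 and Bhlhe41 by -0.17, each with an edgeR adjusted p of 1.00. The low EGFP 1 entered the values of Bhlhe40 and Bhlhe41 here too. For Bhlhe41, rM3Ds 2 and rM3Ds 3 were at 122 and 120 CPM against 269.5 in rM3Ds 1.

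At 3 days after the stimulus, the hM3Dq and mCherry groups did not differ at any clock gene past the test. Neither edgeR, which called 0.0% of all 12807 genes, nor DESeq2, which called 1.22%, called any of the 10. At an unadjusted edgeR p under 0.05 there were 2 of the 10, Per3 and Cry1, beside 12% of all genes. Groups without overlap were found for 3 of the 10, Per3, Cry1 and Tef, all lower with hM3Dq, beside 25.5% of all genes in either direction and 16.2% lower. Per1 stood at 21.3, 21.8 and 21.4 CPM with hM3Dq and at 24.4, 24.8 and 21.4 CPM in mCherry, with a log2 difference of -0.10 ± 0.10 (edgeR adjusted p = 0.639). Per2 stood at 30.9, 31.3 and 30.7 CPM and at 32.9, 25.0 and 27.3 CPM, and its difference was 0.15 ± 0.12 (edgeR adjusted p = 0.569). For both genes the groups overlapped at 3 days.

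Per3 stood at 79.7, 75.1 and 81.2 CPM with hM3Dq and at 117, 91.1 and 117 CPM in mCherry at 3 days, with a difference of -0.43 ± 0.11, an edgeR adjusted p of 0.262 and an unadjusted p of 0.0056. Without mCherry 3 the difference of Per3 was -0.38 (edgeR adjusted p = 0.0271), in a fit that called 9.72% of all genes. Cry1 stood at 11.9, 10.8 and 12.4 CPM with hM3Dq and at 14.1, 15.4 and 16.8 CPM in mCherry, a difference of -0.37 ± 0.12 (edgeR adjusted p = 0.321, unadjusted p = 0.0158). Every hM3Dq library was lower than every mCherry library for both genes. Tef differed by -0.14 ± 0.09, Clock by -0.27 ± 0.17 and Dbp by 0.26 ± 0.24, while Nr1d1, Nr1d2 and Cry2 lay at 0.09, -0.04 and 0.00. The library mCherry 3 stood away from mCherry 1 and 2 for Clock at 135 CPM against 89.4 and 87.5, for Nr1d2 at 198 against 144 and 141, and for Dbp at 50.1 against 104 and 88.5. It also had the highest cell cycle sum at 3 days, 72.6 CPM. Without mCherry 3 the difference of Clock was -0.03 and that of Dbp 0.01, and over all libraries left out in turn they ran from -0.38 to -0.03 and from 0.01 to 0.49.

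The effect of hM3Dq at 3 days minus that at 90 min, each against its own control, was -0.95 ± 0.25 for Per1 (edgeR adjusted p = 0.191). No clock gene passed edgeR's test of this difference, beside 0.396% of all 13391 genes. DESeq2 called 1, Per1, at -0.95 (DESeq2 adjusted p = 0.0330), beside 1.51% of all genes. At an unadjusted edgeR p under 0.05 there were 5 of the 10, beside 9.73% of all genes. Per2 and Per3 had differences of -0.23 and -0.24, so that the 3 Per genes had a median of -0.24, beside 0.05 for the other 7 clock genes, 0.02 for all genes and -0.89 for the 20 CREB targets. Of those 20 targets, 4 had a lower effect at 3 days past the test, with Ptgs2 at -4.02, Fosb at -3.23, Fos at -2.47 ± 0.21 (edgeR adjusted p = 0.000117) and Nr4a2 at -2.66 ± 0.26 (edgeR adjusted p = 0.000318). The controls at the 2 times expressed different proteins, EGFP and mCherry, so the plasmid and the time cannot be told apart in a level. Without EGFP 1 among the controls, 9 of the 20 targets had a lower effect past the test, beside 139 of all 13520 genes. No clock gene passed in that fit, which called 170 genes in either direction.

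**Figure D4:**
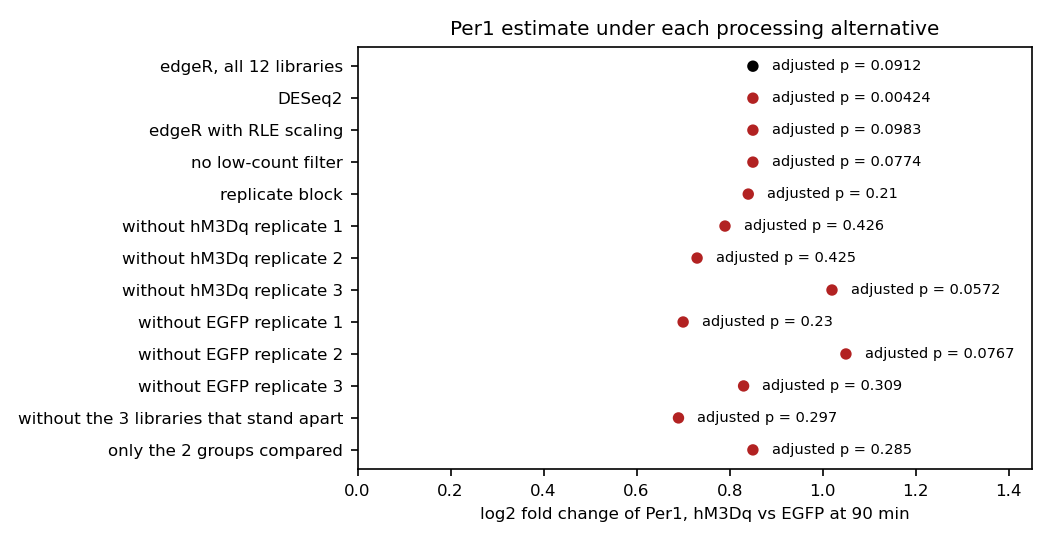
Log2 fold change of Per1, hM3Dq against EGFP at 90 min, under each way of processing, with its adjusted p beside it. All values are above 0, between 0.69 without EGFP 1, rM3Ds 2 and rM3Ds 3 and 1.05, and the adjusted p is under 0.05 in DESeq2 alone.

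Over the 6 groups, ordered by mean CPM, Per1 was highest in hM3Dq at 90 min with 61.3 CPM, apart from the next group. It was followed by rM3Ds at 40.4, hM4Di at 39.3 and EGFP at 34.9, whose libraries overlapped, and then, apart from these, by mCherry at 23.5 and hM3Dq at 21.5 at 3 days. For Per2 every group overlapped its neighbour in the order, from 36.0 CPM in hM3Dq to 28.2 in EGFP at 90 min. Unlike Per1, Per3 was higher at 3 days, with 108 CPM in mCherry and 78.6 in hM3Dq, apart from each other. The 90 min groups lay apart from these at 57.5 to 49.1 CPM, where neighbours overlapped.

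Cry1 was highest in hM3Dq at 90 min with 27.7 CPM and lowest in both 3-day groups, at 15.4 in mCherry and 11.7 in hM3Dq, which were apart from the rest and from each other. Cry2 lay at 46.0 to 47.1 CPM in 5 groups with overlap, and apart from these at 34.4 in hM3Dq at 90 min. Nr1d1 had a like order, with 62.7 to 66.8 CPM in 5 groups and 52.2 in hM3Dq at 90 min. Dbp ran from 98.8 CPM in hM4Di to 64.0 in hM3Dq at 90 min, and neighbours in that order overlapped throughout, mCherry 3 reaching below all hM3Dq libraries. Nr1d2 and Tef were higher at 3 days, at 154 and 161 CPM for Nr1d2 and 177 and 199 for Tef, than at 90 min, at 98.0 to 107 and 124 to 152. For Clock the means lay between 104 CPM in mCherry and 81.9 in hM4Di, with overlap of neighbours but for EGFP and hM3Dq at 90 min. The times are in separate tables and were not tested against each other.

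Per length of the longest coding transcript, with lengths from a GRCm38 annotation rather than the build the submitters name, mean EGFP levels at 90 min were 46.9 CPM per kb for Dbp and 32.4 for Tef. They were 24.1 for Nr1d1, 22.9 for Nr1d2, 11.7 for Cry2, 9.81 for Clock, 9.58 for Per3 and 7.65 for Cry1. Per1 at 7.46 and Per2 at 4.83 CPM per kb were the lowest of the 10. On this scale the D-box activators and the REV-ERB genes were the most abundant clock transcripts, and the Per and Cry genes the least with Clock among them.

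Across the 12 libraries at 90 min, which share their groups and their depth, some clock genes ran together in pairs. Pearson's r of log2(CPM + 1) was 0.83 for Per1 with Per2, but 0.17 for Per1 with Per3. It was 0.84 for Nr1d1 with Dbp, 0.82 for Cry2 with Nr1d1 and 0.81 for Cry2 with Tef. Per1 ran against Dbp at -0.63 and Nr1d1 at -0.61, and Cry1 against Dbp at -0.70. Among 12014 genes, those most like Per1 were Zswim4 at 0.97, Il6ra at 0.95, Ern1 at 0.94, Zxdc at 0.91 and Usp36 at 0.91. Most like Per2 were Spred2 at 0.93, Prickle2 at 0.91 and Pcdhga2, Aff1 and Zcchc2 at 0.90. For Nr1d1 they were Zkscan14 at 0.91, Elmod3 at 0.90, Fig4 at 0.89, Pik3ip1 at 0.88 and Trub2 at 0.88, and for Dbp they were Cybc1 at 0.97, Dact3 at 0.93, Stoml1 at 0.92, Ttll11 at 0.91 and Elmod3 at 0.90. Elmod3 was on both of the last lists. These are descriptions of 12 libraries and carry no test.

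In all, 0 of 80 tests, 10 clock genes in each of 8 comparisons, passed edgeR's threshold, with adjusted p-values from 0.0675 to 1.00. With the replicate block 0 passed, in fits that called 0.486% of all genes for hM3Dq against EGFP, 0.0294% for rM3Ds and 0.0% for hM4Di. Those fits called 0.0% at 3 days, 0.39% and 0.449% for hM3Dq against rM3Ds and hM4Di, 0.0% for rM3Ds against hM4Di and 0.291% for the time difference. With DESeq2 5 passed, of which Per1 made 3 and Dbp 2.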

How the data were processed

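Poly-A enriched RNA from 18 libraries of cultured mouse cortical astrocytes in 6 groups of 3 was sequenced, per the labels' protocols. The values the authors deposited are raw estimated counts for each gene, with 12 libraries (90 min) in one table and 6 libraries (3 days) in another. Salmon 1.8.0, fastp 0.23.4 and the genome build mm39 are listed in the submitters' processing notes, without their roles. How transcripts were summed to genes and whether counting used strand are not given in the sources used here. Symbols matched 21978 of 22078 Entrez identifiers (99.55%).

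Estimated counts were rounded and tested with edgeR 4.0.16 in R 4.3.3 (TMM scaling, default low-count filter, robust quasi-likelihood test, Benjamini-Hochberg adjustment over all genes tested, called under 0.05). The 4 groups at 90 min were fitted together, with 8 residual degrees of freedom, the 3-day groups alone, with 4, and the difference between times as an interaction, with 8. CPM are unrounded estimated counts per 1000000 of the library total, and SE is derived from the fit's F statistic. DESeq2 1.42.0, another scaling, no filter, a replicate block, 2-group fits and leave-one-out fits were the alternatives. The fit without EGFP 1, rM3Ds 2 and rM3Ds 3 was added after seeing the data. The fits were also run on simulated counts, with the same spread for every gene and no libraries apart in culture state. Those runs do not show how the fits behave on libraries such as these.

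The clock genes and all other lists were chosen with earlier results of these data known. All 10 clock genes are named in comparisons with a control, and Per1, Per2, Per3 and any clock gene called in the others. Other clock pathway and CREB target genes are given by counts, with values for Arntl, Nfil3, Bhlhe40, Bhlhe41, Fos, Nr4a1, Nr4a2 and Crem, for clock pathway genes called against a control, and for others said to be named after their values were seen. For Per1, Per2, Nr1d1 and Dbp the 5 most correlated genes are given. Same-numbered libraries of hM3Dq and EGFP at 90 min deviated together (r of 0.133, 0.162 and 0.123 over genes), each r being over 0.1, the limit set for pairing. No other pair of groups compared met that limit, and no label states what a number shares.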

Additional observations from a re-analysis of the deposited data

How the results depend on the processing

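Clock genes called by DESeq2 numbered 1 for hM3Dq against EGFP, 1 against rM3Ds, 2 against hM4Di and 1 for the time difference, where edgeR called 0. Genes called among all genes, by edgeR and then DESeq2, were 107 and 232 for hM3Dq against EGFP, 2 and 56 for rM3Ds against EGFP, 0 and 35 for hM4Di against EGFP, 0 and 156 at 3 days, 91 and 463 for hM3Dq against rM3Ds, 109 and 420 against hM4Di, 2 and 205 for rM3Ds against hM4Di, and 53 and 202 for the time difference. With no filter 1 gene was called at 3 days. With only the groups compared in the fit, 0, 138 and 0 were called for rM3Ds against EGFP, hM3Dq against rM3Ds and rM3Ds against hM4Di. Without EGFP 1, rM3Ds 2 and rM3Ds 3, in the order of the comparisons above, 0 were called for rM3Ds against EGFP, 25 for hM3Dq against rM3Ds, 300 against hM4Di, 0 for rM3Ds against hM4Di and 170 for the time difference. The cause of these moves was not tested. With the replicate block, 66 genes were called for hM3Dq against EGFP, 4 for rM3Ds against EGFP, 53 for hM3Dq against rM3Ds, 61 against hM4Di and 0 for rM3Ds against hM4Di, and no clock gene was called in any comparison. Only hM3Dq and EGFP at 90 min met the rule for paired numbers.

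Signs turned without those 3 libraries for Cry2 (0.01) and Tef (0.04) with rM3Ds against EGFP, Per1 (-0.01), Nr1d1 (-0.03) and Tef (-0.02) with hM4Di against EGFP, and Per2 (0.17) between rM3Ds and hM4Di. At 3 days Cry2 was 0.02 with no filter and 0.00 with the block.

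With 1 library left out, edgeR called 50 to 103 genes for hM3Dq against EGFP, 2 to 115 for rM3Ds against EGFP (115 without rM3Ds 1), 0 to 1257 at 3 days (1257 without mCherry 3), 28 to 590 for hM3Dq against rM3Ds (590 without rM3Ds 1), 38 to 106 against hM4Di, 0 to 392 for rM3Ds against hM4Di (392 without rM3Ds 1) and 28 to 170 for the time difference (170 without EGFP 1). Clock genes called were 0 to 1 at 3 days and 0 to 1 for hM3Dq against hM4Di. Values that crossed 0 were, for rM3Ds against EGFP, Per3 -0.23 to 0.05, Cry2 -0.06 to 0.05, Nr1d1 -0.10 to 0.00, Dbp 0.00 to 0.12 and Tef -0.14 to 0.00, and for hM4Di against EGFP, Per2 -0.05 to 0.30, Cry1 -0.24 to 0.02, Cry2 -0.22 to 0.11, Nr1d1 -0.10 to 0.12, Nr1d2 -0.26 to 0.11 and Tef -0.01 to 0.14. They were also Cry2 -0.07 to 0.06 and Nr1d2 -0.13 to 0.14 at 3 days, Per3 -0.13 to 0.12 for hM3Dq against hM4Di, and Per1 -0.05 to 0.16 and Per2 -0.17 to 0.18 for rM3Ds against hM4Di. Of 715 values of 60 single-gene differences under all alternatives, 668 kept their direction and side of the threshold, 40 turned and 7 came to pass it. With 3 libraries a group, differences near 0 cannot be told from the spread.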
